A study of Mus musculus with 3 samples.

Results

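The miR-15 and miR-16 family is a group of small regulatory RNAs that hold back cell division and favour apoptosis. A miRNA pairs through its seed, the bases 2 to 8 from its 5′ end, with messenger RNAs and lowers their output. The family is known for acting on cyclins that carry cells into S phase and on Bcl2, a protein that protects cells from apoptosis. In the newborn ovary, nests of germ cells break down into primordial follicles while many oocytes are lost by apoptosis.

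Each hairpin precursor gives a 5p arm and a 3p arm. In this family the 5p arm is the guide strand that is loaded to silence targets, and the 3p arm is the passenger strand, most of which is degraded. The members were chosen by name. They were the 5p arms mmu-miR-16-5p, mmu-miR-15a-5p, mmu-miR-15b-5p, mmu-miR-195a-5p and mmu-miR-497a-5p (5 members) and the 3p arms mmu-miR-15a-3p, mmu-miR-15b-3p and mmu-miR-16-1-3p (3 members), written from here on without the mouse prefix mmu. All 8 of 8 members were among the 627 mature miRNAs in the count table.

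The question was how the arms of this family differed between DEHP concentrations. DEHP is a plasticizer of the phthalate class. Ovaries of newborn CD1 female mice were pooled and cultured for 72 h with 10 μM DEHP, with 100 μM DEHP, or with 0 μM DEHP, which received the solvent DMSO alone. Small RNA was sequenced from 1 library per concentration, so the differences between concentrations have no replicate check and no p-value is given.

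The libraries held 5253367 counts at 0 μM, 5064602 at 10 μM and 5952274 at 100 μM. The median miRNA had 232, 227 and 97 counts, so most miRNAs were measured less deeply at 100 μM than in the other libraries. Counts were divided by size factors (1.38, 1.35 and 0.546) that set the typical miRNA equal between libraries. Each log2 ratio is of normalized counts to which 0.5 was added. Folds were computed without this addition, so a fold and its log2 ratio can differ slightly. Ratios were ranked and counted over the 587 miRNAs whose normalized counts averaged 10 or more. Of the 8 members, 7 passed this minimum and miR-15a-3p did not. Intervals are exact 95% intervals (Poisson for a level, Clopper-Pearson for a share or for the split of counts behind a ratio). Reads carried no molecular identifiers, so these intervals, and the floors given for 0 counts, describe counting error alone.

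In normalized counts, the sum of the guide strands was lowest at 100 μM, where the sum of the passenger strands was highest. The guide miR-15b-5p, lowest at 0 μM, and the passenger miR-15a-3p, with 0 counts at 100 μM, did not follow these sums. The 5 guide strands summed to 7836 (7689 to 7985), 8654 (8498 to 8812) and 6396 (6185 to 6612) normalized counts at 0, 10 and 100 μM. The 3 passenger strands summed to 541 (503 to 582), 159.5 (139 to 182) and 2263 (2138 to 2392). The passenger sum was thus lowest at 10 μM and highest at 100 μM, and these intervals did not overlap. In whole ovaries, fewer cells of a type and less RNA per cell cannot be told apart.

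How the libraries are scaled matters for every comparison with 100 μM. The raw counts of the whole family were 11545, 11880 and 4726, or 0.220% (0.216% to 0.224%), 0.235% (0.230% to 0.239%) and 0.0794% (0.0772% to 0.0817%) of the libraries at 0, 10 and 100 μM. Scaling by total counts moved the median ratio of all miRNAs at 100 μM by −1.52 on the log2 scale. Leaving any miRNA among the 10 most abundant of a library out of the totals moved it by −0.58. As a share of the library, the guide sum was 0.206%, 0.230% and 0.0587%, and the passenger sum 0.0142%, 0.00425% and 0.0207%. On this scale too, the guide sum was lowest and the passenger sum highest at 100 μM, but the guide sum then spanned nearly as wide a range as the passenger sum. A share of arms within a hairpin does not depend on this choice, because both arms are counted in the same library.

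The family comes from 6 hairpins in 3 clusters. Positions below are the span of the mature arms on GRCm38.p6. Mir15a (chr14:61632038-61632096, minus strand) and Mir16-1 (chr14:61631894-61631957, minus strand) are 80 bases apart in an intron of Dleu2, a noncoding RNA gene. Mir15b (chr3:69009775-69009834, plus strand) and Mir16-2 (chr3:69009918-69009981, plus strand) are 83 bases apart in an intron of Smc4, which encodes a subunit of the condensin complex. Mir497 (chr11:70234730-70234790, plus strand) and Mir195a (chr11:70235062-70235121, plus strand) are 271 bases apart, and Mir497b lies on the minus strand over Mir497.

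The 5 guide strands carry the same seed, AGCAGCA, and are shown because the seed sets which messenger RNAs they pair with. The sequences are from RefSeq (build GRCm38.p6), which had a mature sequence for 8 of 8 members and for 529 of the 627 miRNAs in the table. Capitals mark the seed.
miR-16-5p: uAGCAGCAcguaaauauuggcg
miR-195a-5p: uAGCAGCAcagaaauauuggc
miR-15a-5p: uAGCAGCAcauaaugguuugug
miR-15b-5p: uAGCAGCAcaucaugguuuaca
miR-497a-5p: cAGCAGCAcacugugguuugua
Outside the seed the guides differ. miR-195a-5p is the closest to miR-16-5p, with 19 of 21 positions identical, and differs from it by G10A and U11G, with positions counted from 1 at the 5′ end and the base of miR-16-5p given before the number. miR-15a-5p shares 16 of 22 positions with miR-16-5p, miR-15b-5p 14 of 22 and miR-497a-5p 11 of 22. Of 10 mature mouse sequences with this seed, 6 had values in the table: the 5 guides and miR-322-5p.

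miR-16-5p, made from both Mir16-1 and Mir16-2, was the most abundant guide in each library. It had 8764 counts at 0 μM, 9295 at 10 μM and 2700 at 100 μM, or 6359, 6896 and 4947 normalized counts. By level it ranked 71, 68 and 94 of the 627 miRNAs. It made up 81.2%, 79.7% and 77.3% of the guide counts, so the other 4 guides together stayed a minority in each library.

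The log2 ratio of miR-16-5p was 0.12 at 10 μM against 0 μM (0.07 to 0.16) and −0.36 at 100 μM against 0 μM (−0.43 to −0.30). Between 100 and 10 μM it was −0.48 (−0.54 to −0.42). It was therefore slightly higher at 10 μM and 1.29-fold lower at 100 μM. The value at 100 μM against 0 μM was −1.88 with total-count scaling and −0.94 without the most abundant miRNAs, and its direction was the same with each scaling.

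The same 22 bases of miR-16-5p come from chromosomes 14 and 3, and the table gives the miRNA in a separate row for each precursor. The row used here had 8764, 9295 and 2700 counts and the other row 8687, 9268 and 2677. They differed by 77, 27 and 23 counts (0.879%, 0.290% and 0.852%). The log2 ratios from the other row were 0.13, −0.36 and −0.49. Reads of these 22 bases cannot be assigned to a locus, so the rows do not show which precursor made the guide.

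miR-15b-5p, the guide of the Smc4 cluster beside miR-16-5p, had 1159, 1481 and 539 counts, or 841, 1099 and 987 normalized counts. Its log2 ratio was 0.39 at 10 μM (0.27 to 0.50). For 100 μM against 0 μM the ratio was 0.23 (0.08 to 0.38), but it was −0.35 without the most abundant miRNAs and −1.28 with total-count scaling, so the direction at 100 μM depends on the scaling. No other guide changed sign under another scaling.

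miR-15a-5p, the guide of the Dleu2 cluster beside miR-16-5p, had 244, 270 and 46 counts, or 177, 200.3 and 84.3 normalized counts. Its ratio was 0.18 at 10 μM, with an interval across 0 (−0.08 to 0.43), and −1.07 at 100 μM against 0 μM (−1.56 to −0.61; −2.57 with total-count scaling). The 2 miR-15 guides thus differed at 100 μM: the interval of miR-15a-5p lay wholly below that of miR-15b-5p, and this difference between them does not depend on the scaling.

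miR-195a-5p and miR-497a-5p, guides of the third cluster, act on the same class of cell cycle messenger RNAs. miR-195a-5p had 463, 493 and 169 counts (336, 366 and 309.6 normalized), and its ratios to 0 μM were 0.12 (−0.06 to 0.31) and −0.12 (−0.38 to 0.14). Neither difference was detectable at this depth, although the ratio at 100 μM was −1.63 with total-count scaling. miR-497a-5p had 169, 126 and 37 counts (123, 93.5 and 67.8 normalized), with ratios of −0.39 (−0.74 to −0.05) and −0.85 (−1.41 to −0.33). It was lowest at 100 μM, where its ratio to 0 μM was −2.35 with total-count scaling. Against 10 μM its ratio at 100 μM was −0.46, with an interval across 0 (−1.03 to 0.08; −1.98 with total-count scaling).

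The order of the guides by count was the same in the 3 libraries: miR-16-5p, miR-15b-5p, miR-195a-5p, miR-15a-5p and miR-497a-5p. miR-16-5p exceeded miR-15b-5p 7.56-fold (7.11 to 8.05), 6.28-fold (5.94 to 6.63) and 5.01-fold (4.57 to 5.50) at 0, 10 and 100 μM. The lead of miR-16-5p over miR-15b-5p was thus smallest at 100 μM. Each guide differed from the next in order beyond counting error, except miR-15a-5p and miR-497a-5p at 100 μM (ratio 1.24, 0.789 to 1.97).

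As a group the guides stayed near the other miRNAs named 5p. Their median log2 ratio was 0.12 at 10 μM against 0 μM, −0.36 at 100 μM against 0 μM and −0.46 at 100 μM against 10 μM. The medians of all 270 miRNAs named 5p that passed the minimum were 0.01, −0.17 and −0.25. The guides lay between −1.07 and 0.23 at 100 μM against 0 μM, with an SD over the 5 guides of 0.53, while the SD over the 587 miRNAs was 1.60. None of the 5 guides went beyond a log2 ratio of 2 with the main scaling, in comparisons that share libraries and are not independent. With total-count scaling, miR-15a-5p (−2.57) and miR-497a-5p (−2.35) were below −2 at 100 μM against 0 μM, and miR-15a-5p (−2.77) and miR-16-5p (−2.02) at 100 μM against 10 μM. With the main scaling, 9.37% of the 587 miRNAs were below −2 in the former comparison and 8.69% in the latter, and with total-count scaling 213 and 226 miRNAs were.

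**Figure D1:**
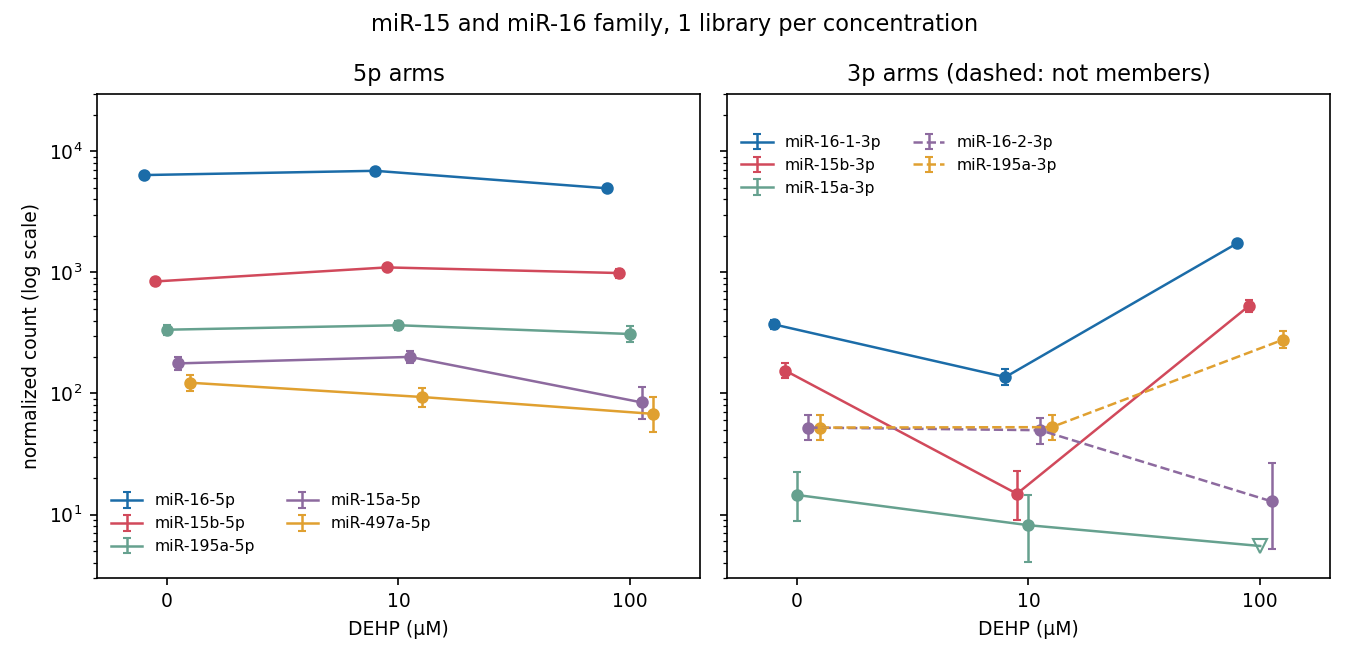
Normalized counts (log scale) of the guides (left) and passengers (right) at each DEHP concentration in μM, 1 library each, with exact Poisson 95% intervals as bars. Dashed lines are miR-16-2-3p and miR-195a-3p, which are not members, and the open triangle is miR-15a-3p with 0 counts drawn at the floor of 3 counts (5.50 normalized); miR-15b-3p and miR-16-1-3p were lowest at 10 μM and highest at 100 μM.

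The passenger strand miR-15b-3p showed the widest spread of the members that passed the minimum. It had 213 counts at 0 μM, 20 at 10 μM and 287 at 100 μM, or 155, 14.8 and 526 normalized counts. It was low only at 10 μM, where it was 10.4-fold lower than at 0 μM, a log2 ratio of −3.34 (−4.12 to −2.72). At 100 μM it was 3.40-fold higher than at 0 μM, a log2 ratio of 1.76 (1.51 to 2.03). That value was 0.25 with total-count scaling and 1.18 without the most abundant miRNAs. Between 100 and 10 μM the ratio was 5.10 (4.49 to 5.88), or 3.58 with total-count scaling.

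Among the 587 miRNAs, the ratio of miR-15b-3p was the lowest at 10 μM against 0 μM and the highest at 100 μM against 10 μM. Its rank at 100 μM against 0 μM was 79 from the highest. The ranks that involve 10 μM rest on the 20 counts there. All of these ranks use ratios with 0.5 added for miRNAs with few counts too.

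miR-16-1-3p, the passenger of the Dleu2 copy of miR-16, had the same shape. It had 513, 184 and 948 counts, or 372, 136.5 and 1737 normalized counts. It was 2.73-fold lower at 10 μM than at 0 μM (log2 ratio −1.44, −1.70 to −1.20) and 4.67-fold higher at 100 μM than at 0 μM (2.22, 2.07 to 2.38). Against 10 μM, the ratio at 100 μM was 3.66 (3.44 to 3.91), a 12.7-fold difference. With total-count scaling the ratio was 0.71 at 100 μM against 0 μM and 2.13 against 10 μM. Its ranks among the 587 miRNAs were 13 from the lowest at 10 μM against 0 μM, 46 from the highest at 100 μM against 0 μM and 6 from the highest at 100 μM against 10 μM.

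miR-15a-3p, the passenger from the same Dleu2 intron, had few counts: 20 at 0 μM, 11 at 10 μM and 0 at 100 μM. These are 14.5 and 8.16 normalized counts, and a count of 0 allows up to 3 counts, or 5.50 normalized counts, at 100 μM. Its ratio at 10 μM was −0.79 (−2.04 to 0.30), which is not detectable at this depth. At 100 μM it was at least 2.64-fold lower than at 0 μM, a limit set by the floor of 3 counts. The counting interval of this ratio reaches −0.97 on the log2 scale, a smaller difference than this limit. miR-15a-3p and miR-16-1-3p lie in the same intron, yet the former was lower and the latter higher at 100 μM, with total-count scaling as well.

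Counted over the members that passed the minimum, 0 of 7 were above a log2 ratio of 2 at 10 μM against 0 μM, where 0% of the 587 miRNAs were, and 1 of 7 was below −2 (miR-15b-3p), where 0.681% were. At 100 μM against 0 μM, 1 of 7 was above 2 (miR-16-1-3p; background 10.4%) and 0 of 7 were below −2 (background 9.37%). At 100 μM against 10 μM, 2 of 7 were above 2 (background 12.3%) and 0 of 7 below −2 (background 8.69%). The 1 member called at 100 μM against 0 μM is near what the background gives for 7 miRNAs. At 10 μM, in contrast, 4 of 587 miRNAs were below −2 and miR-15b-3p was among them. With total-count scaling the background at 100 μM against 0 μM was 4 miRNAs above 2 and 213 below −2, in place of 61 and 55, and at 100 μM against 10 μM it was 8 and 226, in place of 72 and 51. Without the most abundant miRNAs these counts were 28 and 103, and 33 and 99.

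The median log2 ratio of the 7 members was 0.12, −0.12 and −0.24 in the 3 comparisons, and that of all 587 miRNAs was 0.02, −0.01 and −0.03. The median hides the split between arms. All 274 miRNAs named 3p that passed the minimum had medians of 0.02, 0.25 and 0.27, with SDs over these miRNAs of 0.57, 1.56 and 1.64. At 100 μM against 0 μM, 27 of the 274 were above 2 and 20 below −2, so miR-15b-3p and miR-16-1-3p lay within a wide spread there.

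The other passengers of the same hairpins are not members but complete the picture. miR-16-2-3p, the passenger of the Smc4 copy of miR-16, had 72, 67 and 7 counts, or 52.2, 49.7 and 12.8 normalized counts. Its ratios to 0 μM were −0.07 and −1.99 (−3.39 to −0.91; −3.44 with total-count scaling), so it was lower at 100 μM, where miR-16-1-3p was higher. miR-195a-3p had 72, 71 and 152 counts, or 52.2, 52.7 and 278 normalized counts. It did not differ detectably at 10 μM (0.01, −0.48 to 0.51) and was higher at 100 μM (2.40, 2.0 to 2.84; 0.89 with total-count scaling). miR-497a-3p is not in the table.

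The copies of miR-16 can be told apart by their passengers. miR-16-1-3p made up 87.7% of the counts of both miR-16 passengers in the 0 μM library (84.8% to 90.2%), 73.3% in the 10 μM library (67.4% to 78.7%) and 99.3% in the 100 μM library (98.5% to 99.7%). The 3 intervals did not overlap, so the balance of the passengers differed between the libraries. In both clusters that hold a miR-16 copy, 1 passenger was higher and the other lower at 100 μM.

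The share of the 3p arm within each hairpin gave the same picture without any scaling. For Mir15b the 3p arm held 15.5% (13.6% to 17.6%), 1.33% (0.816% to 2.05%) and 34.7% (31.5% to 38.1%) of the counts of both arms at 0, 10 and 100 μM. For Mir16-1, set against all miR-16-5p counts, it held 5.53% (5.07% to 6.01%), 1.94% (1.67% to 2.24%) and 26.0% (24.6% to 27.4%). Both shares were lowest at 10 μM and highest at 100 μM, and their intervals did not overlap. The guide of Mir16-1 is also made by Mir16-2, and its counts cannot be divided between them. With the counts of both miR-16-5p rows summed, the Mir16-1 shares were 2.86%, 0.981% and 15%, in the same order. For Mir195a the share was 13.5% (10.7% to 16.6%), 12.6% (9.96% to 15.6%) and 47.4% (41.8% to 53.0%), so at 100 μM the passenger of this hairpin was nearly as abundant as its guide. For Mir16-2 it was 0.815% (0.638% to 1.03%), 0.716% (0.555% to 0.908%) and 0.259% (0.104% to 0.532%). For Mir15a it was 7.58% (4.69% to 11.5%), 3.91% (1.97% to 6.90%) and 0 of 46 counts, which allows a share of up to 6.52% by the floor of 3 counts and up to 7.71% by the exact interval. The shares of Mir15a overlapped between 0 μM and the other libraries at this depth.

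**Figure D2:**
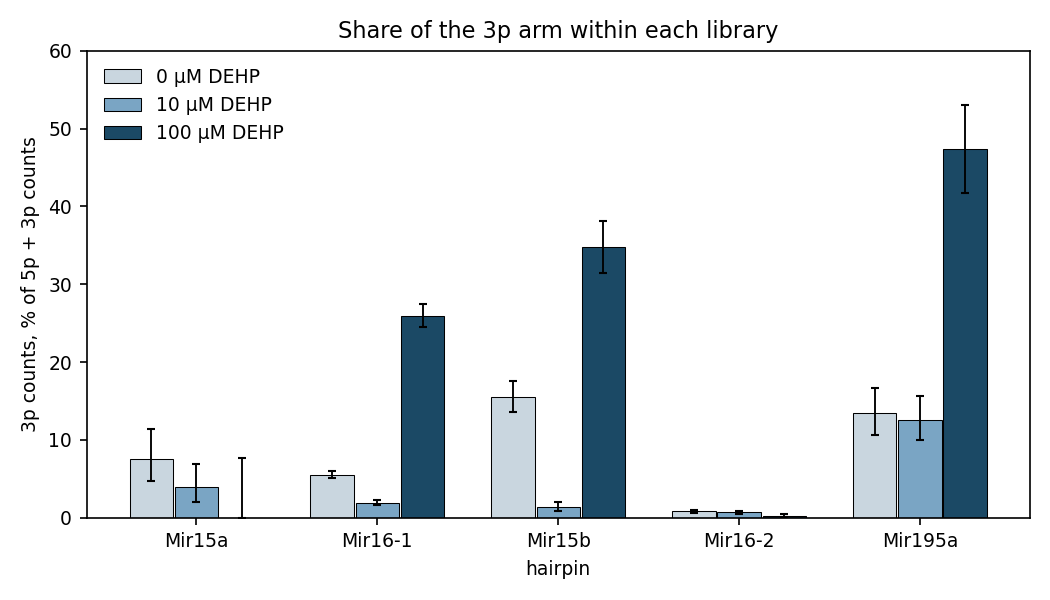
Share of the 3p arm in the counts of both arms (percent) for 5 hairpins at 0, 10 and 100 μM DEHP, 1 library each, with exact Clopper-Pearson 95% intervals as bars. Mir15b and Mir16-1 were lowest at 10 μM and highest at 100 μM, Mir195a was higher only at 100 μM, and Mir15a had 0 of 46 counts in the 3p arm at 100 μM.

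These shares were set beside the other hairpins of the table. Of 179 hairpins with both arms in the table, 170 had both arms past the minimum, among them Mir15b, Mir16-1, Mir16-2 and Mir195a. The change in log2(3p/5p) had a median of 0.01 at 10 μM against 0 μM (quartiles −0.37 and 0.40), 0.33 at 100 μM against 0 μM (−1.14 and 1.60) and 0.19 at 100 μM against 10 μM (−1.24 and 1.89). Arm ratios over the table were thus spread far more widely in the comparisons with 100 μM than at 10 μM.

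Mir15b differed by −3.73 at 10 μM against 0 μM, the lowest of the 170. It differed by 1.53 at 100 μM against 0 μM, rank 46 from the highest, and by 5.27 at 100 μM against 10 μM, rank 3. Mir16-1 differed by −1.56 (rank 4 from the lowest), 2.58 (rank 22 from the highest) and 4.15 (rank 7 from the highest). These hairpins stood at the low end at 10 μM and inside the wide spread at 100 μM against 0 μM. Mir195a differed by −0.11, 2.52 and 2.63, and Mir16-2 by −0.19, −1.57 and −1.39.

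Among these 4 hairpins, 0 were above 2 at 10 μM against 0 μM (background 0.588%) and 1 was below −2 (Mir15b; background 1.18%). Between 100 and 0 μM, 2 were above 2 (Mir16-1 and Mir195a; background 21.2%) and 0 below −2 (background 14.7%). Between 100 and 10 μM, 3 were above 2 (background 22.4%) and 0 below −2 (background 17.1%). A shift of this size from the 5p to the 3p arm in log2(3p/5p), which either arm can give, was therefore common in the table at 100 μM. At 10 μM, 2 of the 170 hairpins were below −2, Mir15b among them.

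**Figure D3:**
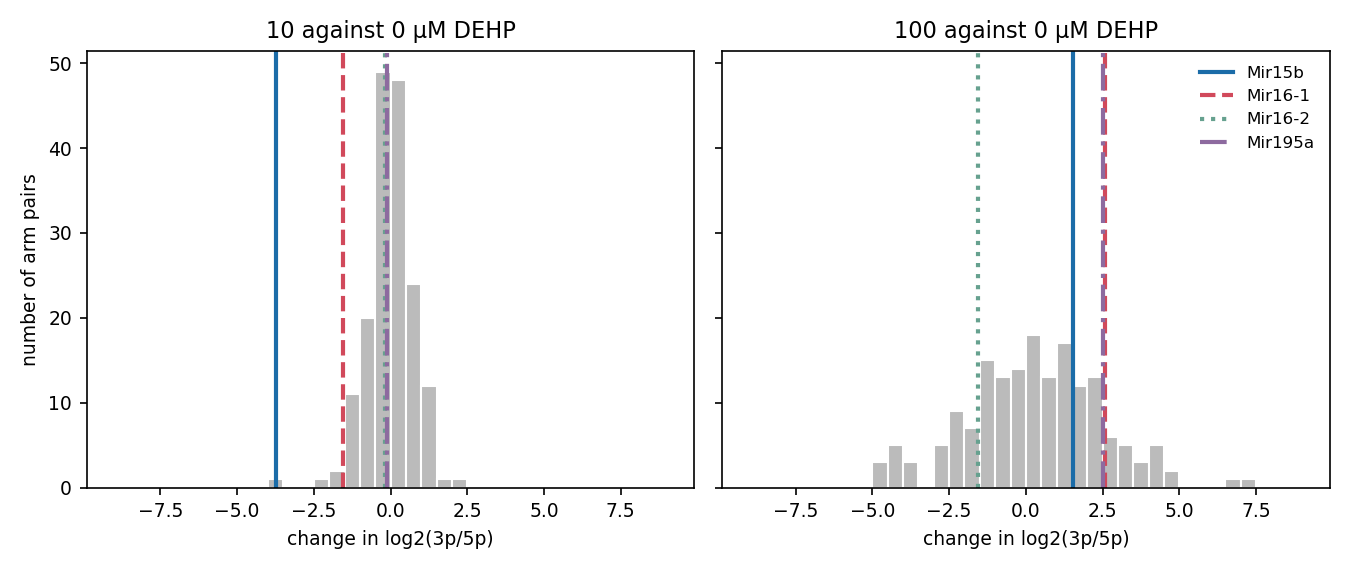
Number of hairpins by the change in log2(3p/5p) at 10 μM (left) and 100 μM DEHP (right) against 0 μM, over 170 hairpins with both arms past the minimum; vertical lines mark 4 hairpins of the family. Mir15b is the lowest at 10 μM (−3.73), and at 100 μM the family lies within a wide spread.

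The passengers are printed because their changes carry the results above. A guide and its passenger pair along the hairpin stem, and the reverse complement of the seed AGCAGCA is UGCUGCU. This motif was searched on the mature strand alone and is in capitals where present.
miR-15b-3p: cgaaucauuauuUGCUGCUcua
miR-16-1-3p: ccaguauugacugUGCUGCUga
miR-16-2-3p: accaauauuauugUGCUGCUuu
miR-195a-3p: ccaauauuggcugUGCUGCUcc
miR-15a-3p: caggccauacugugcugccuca
The motif is in 4 of the 6 3p arms of the family, and miR-15a-3p does not hold it. Of the 251 3p arms in the table with a sequence, 5 hold it (1.99%), the only one outside the family being miR-324-3p. Of the 4 family passengers with the motif, miR-15b-3p, miR-16-1-3p and miR-195a-3p were higher at 100 μM than at 0 μM and miR-16-2-3p was lower. Sharing these bases therefore did not go with a shared direction.

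The nearest relatives outside the family are miR-322-5p and miR-503-5p, which lie close together on the X chromosome and also act on cell cycle messenger RNAs. miR-322-5p has the family's seed, while miR-503-5p differs from it by A8G, numbered as above. Capitals mark bases 2 to 8.
miR-322-5p: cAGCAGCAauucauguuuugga
miR-503-5p: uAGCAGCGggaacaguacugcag
miR-322-5p had 6260, 6461 and 2042 counts (4542, 4793 and 3741 normalized), with ratios to 0 μM of 0.08 and −0.28. Its values stayed close to those of miR-16-5p (0.12 and −0.36). miR-503-5p had 8611, 5412 and 968 counts (6248, 4015 and 1773 normalized), with ratios of −0.64 (−0.69 to −0.59) and −1.82 (−1.91 to −1.72). At 0 μM it was close to miR-16-5p in level, and at 100 μM its level was below that of miR-16-5p by more than counting error. With total-count scaling the ratios at 100 μM against 0 μM were −1.80 for miR-322-5p and −3.33 for miR-503-5p.

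Other miRNAs known to act on the cyclins of this step or on Bcl2 family messenger RNAs were listed for comparison with the family. All 10 were in the table and 9 passed the minimum. At 10 μM against 0 μM none was beyond a log2 ratio of 2 and the median was −0.14, with 4 higher and 5 lower. The lowest were miR-34b-5p (−1.28, −1.38 to −1.17) and miR-34c-5p (−1.20, −1.24 to −1.16), in a comparison where 30 of the 587 miRNAs were below −1. At 100 μM against 0 μM 3 of 9 were below −2: miR-34a-5p (−2.38), miR-34b-5p (−3.08) and miR-181a-5p (−2.36), where 9.37% of the 587 miRNAs were. miR-34a-5p and miR-34b-5p are targets of the p53 pathway, as is the related miR-34c-5p (−1.30), which was not below −2. The other 6, miR-34c-5p among them, lay between 0 and −2. Of these 6, let-7a-5p was at −0.06, and at 0.02 with TMM scaling. In this comparison 7 of 9 were below −2 with total-count scaling, where 213 of 593 miRNAs were, and 5 of 9 without the most abundant miRNAs, where 103 of 590 were. The median of the list was −1.44, against −0.36 for the family's guides and −0.01 for all 587 miRNAs. Against 10 μM, 2 of 9 were below −2 at 100 μM (miR-34a-5p at −2.09 and miR-181a-5p at −2.22), where 8.69% of the 587 miRNAs were, and the median was −1.54. With total-count scaling 7 of 9 were below −2 here (226 of 593 over all miRNAs), and without the most abundant miRNAs 5 of 9 (99 of 590).

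The miRNAs outside the family and its relatives with the most similar pattern were found by the Euclidean distance between the pairs of log2 ratios to 0 μM, over 3 libraries and 574 miRNAs. For miR-16-5p these were miR-615-5p (distance 0.0364; 16, 17 and 5 counts), miR-455-3p (0.0580; 1872, 2047 and 592 counts) and miR-451a (0.0898; 165, 177 and 54 counts). For miR-16-1-3p they were miR-3081-3p (0.482; 1385, 687 and 2346 counts), miR-375-3p (0.512; 26, 13 and 50 counts) and miR-486a-3p (0.580; 44, 19 and 58 counts). Other miRNAs thus shared the shape of miR-16-1-3p, low at 10 μM and high at 100 μM. For miR-15b-3p the nearest were farther off: miR-3069-3p (1.55; 21, 2 and 10 counts), miR-196a-2-3p (1.66; 19, 3 and 10 counts) and miR-216a-5p (1.99; 18, 4 and 9 counts). These 3 had at most 4 counts at 10 μM.

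The tissue label was checked against marker miRNAs. miR-202-5p, which marks the gonad, had 41367, 53172 and 9799 counts and ranked 32, 25 and 55. It had 30017, 39447 and 17952 normalized counts, and the other arm, miR-202-3p, had 1171, 936 and 2012 (31188, 40382 and 19964 in sum). The gonad marker was thus abundant in each library, with the 5p arm lowest at 100 μM. The 3p arm was highest at 100 μM in normalized counts, but its raw counts (1614, 1261 and 1098) and its share of the library (0.0307%, 0.0249% and 0.0184%) were lowest there. Of 6 markers of liver, muscle and brain, 5 had values, with 811, 722 and 1154 normalized counts in sum. In normalized counts this sum, like that of the passenger strands, was lowest at 10 μM and highest at 100 μM. Its raw counts (1118, 973 and 630) and its share of the library were lowest at 100 μM, so its direction there depends on the scaling. The most abundant of these markers was the brain miRNA miR-9-5p (705, 670 and 360 counts), and miR-124-3p was not in the table. The markers were not alike. miR-9-5p had 512, 497 and 660 normalized counts, with an interval across 0 for its log2 ratio at 10 μM (−0.04, −0.20 to 0.11). miR-1a-3p had 257, 187 and 462. The rest had few counts: miR-133a-3p followed the sum (7.98, 6.68 and 11.0), miR-122-5p was highest at 0 μM (16.0, 10.4 and 14.7) and miR-206-3p at 10 μM (18.9, 20.8 and 7.33). Whether these markers bear on the result was not tested.

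Red blood cells are rich in miR-16-5p, so their markers were set beside it. All 3 (miR-451a, miR-144-3p and miR-486a-5p) had counts in each library, and together they had 948, 1009 and 835 normalized counts. The most abundant was miR-486a-5p, with 1126, 1180 and 400 counts. The sum is mostly miR-486a-5p, and miR-451a had 165, 177 and 54 counts. The ratios of miR-486a-5p to 0 μM were 0.10 (−0.02 to 0.22) and −0.16 (−0.33 to 0.01). Those of miR-451a were 0.13 (−0.18 to 0.45) and −0.27 (−0.75 to 0.18). With the main scaling, neither marker thus differed detectably from 0 μM. Like miR-16-5p (6359, 6896 and 4947 normalized counts), the sum was highest at 10 μM and lowest at 100 μM, whereas miR-144-3p had 16, 3 and 2 counts and was lower at 10 μM than at 0 μM (log2 ratio −2.15, −4.80 to −0.58). The part of these markers in the result was not tested.

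Markers of other cells also differed between the libraries in which the passengers of the family differed. The 3 white blood cell markers summed to 120, 128 and 98.9 normalized counts, with none at 0, and the most abundant was miR-142a-3p at 0 μM (62 counts) and miR-150-5p at 10 and 100 μM (99 and 31 counts). Within this list miR-142a-3p had 45.0, 22.3 and 11.0 normalized counts, miR-150-5p 43.5, 73.4 and 56.8, and miR-223-3p 31.2, 31.9 and 31.1, so they were not alike. The 5 markers of germ cells and early embryos, from the miR-290 cluster, summed to 2593, 1869.5 and 5494, the most abundant being miR-293-3p at 0 and 10 μM (1509 and 925 counts) and miR-294-3p at 100 μM (1192 counts). In normalized counts their sum, like miR-15b-3p and miR-16-1-3p, was lowest at 10 μM and highest at 100 μM, while the sum of their raw counts (3574, 2520 and 2999) was highest at 0 μM. In normalized counts each of the 5 was lowest at 10 μM, and all but miR-293-3p were highest at 100 μM. The markers were not alike in size of difference, since miR-293-3p had 1095, 686 and 973 normalized counts and miR-294-3p 336, 266 and 2184. The endothelial miR-126a-3p had 39638, 44490 and 9105 normalized counts. The part of these markers in the result was not tested.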

How the data were processed

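The authors made the counts with miRDeep2, after adapter and quality trimming and alignment to the mouse genome with bowtie2. The submitters' processing notes name mm10 and DESeq2. Tool versions and the miRBase release are not given in the sources used here. The deposited values are whole-number counts without normalization, in 961 rows for 627 mature miRNAs. The 3 columns carry the sample titles, whose labels give the concentration.

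For the 79 miRNAs with several precursor rows, the row of highest total was taken, which left 5064602 to 5952274 counts per library. No miRNA had under 10 counts at 0 μM, while the minimum of the other libraries was 2 (10 μM) and 0 (100 μM), so a miRNA present only after DEHP is not seen. Size factors came from DESeq2 1.42.0 in R 4.3.3, alternative factors from edgeR 4.0.16, and other values from Python 3.11.15 with SciPy 1.17.1 and matplotlib 3.10.9. A log2 ratio was counted when beyond 2 in either direction. For 0 counts, a fold was computed against a floor of 3 counts, which is 2.18, 2.23 and 5.50 normalized counts at 0, 10 and 100 μM. Arm ratios had 0.5 counts added to each arm. Scripts were tested on simulated data.

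Named were the 8 members, the other arms of their hairpins, miRNAs with the same seed, miR-322-5p and miR-503-5p, a list of 10 miRNAs that act on cyclins or Bcl2 family messenger RNAs, cell markers, and the 3 nearest patterns of miR-16-5p and of each member beyond 2. The members and lists were chosen with earlier results of these data known. Compared were 10 with 0 μM, 100 with 0 μM and 100 with 10 μM. Alternatives were TMM, upper-quartile and total-count scaling, totals without the 10 most abundant miRNAs, size factors from all rows, 1 or 5 normalized counts added, no minimum or a minimum of 100, the row with the lowest total or summed rows, and a threshold of 1.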

Additional observations from a re-analysis of the deposited data

How the results depend on the processing

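With 1 library per concentration, no replicate could be left out. No paired analysis was possible because each concentration has 1 library and the labels give no replicate numbers. The minimum cannot change a member's log2 ratio, and the values added and row choices moved none past its counting interval. Over the 5 other scalings, 105 ratios of the 7 members past the minimum were computed: 75 stayed within the counting interval of the main value, 30 moved beyond it, and 2 had the other sign, both for miR-15b-5p at 100 against 0 μM. The 3p shares of Mir15a, Mir15b and Mir195a come from single rows and could not move. With the precursor rows of miR-16-5p summed, which counts any shared reads again, 5 of 6 shares left their interval: Mir16-1 was then at 2.86%, 0.981% and 15%, and Mir16-2 at 0.411% and 0.360% at 0 and 10 μM.

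The median of the members at 10 against 0 μM was 0.18 with upper-quartile scaling and 0.18 with size factors from all rows. It was −0.12 with total counts and −0.14 with no minimum, and in both cases miR-15a-3p passed and 8 members were counted, as in the other comparisons with total counts. At 100 against 0 μM it was −0.70 if totals left out the 10 most abundant miRNAs, −1.75 with total counts and 0.06 with a minimum of 100. At 100 against 10 μM it was −0.85 if totals left out these miRNAs and −1.88 with total counts.

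With total counts, 3 members were beyond 2 at 100 against 0 μM and 5 at 100 against 10 μM, each time with miR-15a-3p, which passed the minimum under this scaling, had 0 counts at 100 μM and was counted by its ratio with 0.5 added. Over all miRNAs, 4 were above 2 and 213 below −2 of 593 at 100 against 0 μM, and 8 and 226 at 100 against 10 μM. At 100 against 0 μM, 0 were beyond it when totals left out the 10 most abundant miRNAs, and 2 when no minimum was set. The latter count takes in miR-15a-3p by its ratio with 0.5 added, while its limit against the floor is 2.64-fold, so its 0 counts do not show it beyond 2. With a threshold of 1, 2 members were beyond it at 10 against 0 μM and 3 at 100 against 0 μM. Over all miRNAs, a threshold of 1 gave 9 above and 30 below at 10 against 0 μM, 157 and 151 at 100 against 0 μM, and 173 and 145 at 100 against 10 μM. At 10 against 0 μM, 9 miRNAs were below −2 with no minimum and 1 with a minimum of 100. Where no construction is named, the cause was not tested.

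Depth limits the values of miR-15a-3p in each library, of miR-15b-3p at 10 μM (20 counts) and of miR-16-2-3p at 100 μM (7 counts). With 1 library per concentration, a difference between libraries cannot be told apart from a difference between concentrations.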

Other observations

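Values were also taken for 3 miRNAs chosen after their values were seen. miR-322-3p is the 3p arm of the hairpin that makes miR-322-5p. It had 40803, 40984 and 37543 counts at 0, 10 and 100 μM, or 29608, 30405 and 68781 normalized counts, far above miR-322-5p. Its share of the library (0.777%, 0.809% and 0.631%) was lowest at 100 μM, so its direction there depends on the scaling. miR-503-3p had 1203, 1552 and 444 counts, with a log2 ratio of −0.10 at 100 against 0 μM, while miR-503-5p was at −1.82. As a share of the library, miR-503-3p was 0.0229%, 0.0306% and 0.00746%, so on that scale it was lower at 100 μM. miR-497b, which lies opposite Mir497 on the other strand, had 16, 10 and 30 counts, and its log2 ratio at 100 against 0 μM was 2.20 (1.32 to 3.22). Its share of the library (0.000305%, 0.000197% and 0.000504%) was also highest at 100 μM, but by less than in normalized counts.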
